A study of Rattus norvegicus with 9 samples.

Results

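The osmolyte and urea transport genes of the rat kidney were taken by symbol as 7 genes of the 19367 in the deposited table. They were the transcription factor gene Nfat5, the organic osmolyte carriers Slc5a3, Slc6a6 and Slc6a12, the aldose reductase gene Akr1b1, and the urea transporters Slc14a1 and Slc14a2. Levels were compared in kidney RNA of 3 groups with 3 libraries each. The treated group was spontaneously hypertensive rats (SHR) that had received dapagliflozin, an inhibitor of the glucose carrier SGLT2, orally for 8 weeks at a daily dose of 10 mg/kg. The untreated SHR and the normotensive Wistar-Kyoto rats (WKY) had received distilled water for the same 8 weeks, and all rats were 3 months old at the start. Another label gives saline for both untreated groups, and the strain label reads Wistar-Kyoto for every library, so the titles alone set the groups here. The labels give 3 rats per group but do not tie a library to a rat, so p-values measure the spread between these libraries. Sex is not among the labels, and no treated WKY rats were part of the design analysed here.

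Cells of the renal medulla live in a salt and urea concentration far above that of plasma. They balance it with small organic osmolytes: myo-inositol, taurine and betaine are carried in, and sorbitol is made from glucose inside the cell. NFAT5, also called TonEBP, is the transcription factor that raises the genes for these carriers and for aldose reductase when the surroundings become hypertonic, through DNA elements called TonE. Urea itself is moved by the UT-A carriers of the inner medullary collecting duct and thin descending limb (Slc14a2) and by UT-B of the descending vasa recta and red cells (Slc14a1). The same carriers also serve cortical cells, where the taurine carrier takes part in recovering filtered taurine.

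NFAT5 acts on the DNA upstream of its targets, so the promoter windows of both Slc6 carriers are shown, as for both of them all 3 treated libraries lay below the other 6. RefSeq windows of the assembly GRCr8, from 250 bases before to 50 bases after an annotated start, were held for 5 of the 7 members, in 6 windows. No window was held for Nfat5 or Akr1b1, so these were not searched. Both strands were searched for the TonE consensus and for its first bases, TGGAAA, which every TonE match also contains. Capitals mark a TonE match, and each sequence reads in the direction of its gene.
Slc6a6 promoter at chr4:125752252-125752551 (+): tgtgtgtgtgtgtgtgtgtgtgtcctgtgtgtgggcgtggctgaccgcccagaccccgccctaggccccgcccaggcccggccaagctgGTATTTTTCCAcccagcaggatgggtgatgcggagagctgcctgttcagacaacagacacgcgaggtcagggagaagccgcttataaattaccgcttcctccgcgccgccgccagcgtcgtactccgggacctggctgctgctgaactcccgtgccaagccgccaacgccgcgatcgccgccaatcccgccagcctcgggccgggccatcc
Slc6a12 promoter at chr4:156257268-156257567 (+): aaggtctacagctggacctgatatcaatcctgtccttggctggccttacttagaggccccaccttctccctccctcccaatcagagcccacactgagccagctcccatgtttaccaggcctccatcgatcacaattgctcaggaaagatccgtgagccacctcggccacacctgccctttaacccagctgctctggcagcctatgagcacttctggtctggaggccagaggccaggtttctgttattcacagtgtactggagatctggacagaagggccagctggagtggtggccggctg
The Slc6a6 window held 1 TonE match, on the opposite strand from -161 to -151 relative to the start, and no other member's window held a match to TonE or to TGGAAA. Across all 33469 windows of the table, 5.98% held a TonE match and 22.7% held TGGAAA. A match is a description of letters, and absence from a window says nothing of sites outside it.

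The 7 genes differed widely in level, and their order was alike in the 3 groups except at the top and among the weak members. Slc6a6, Akr1b1 and Nfat5 were well expressed, with means over the 9 libraries of 24.4, 23.7 and 12.8 FPKM, each above at least 67.9% of all genes. FPKM is scaled per length of transcript, so levels may be set beside each other. Slc5a3 averaged 1.22 FPKM and Slc6a12 0.964 FPKM. Slc14a1 averaged 0.361 FPKM and Slc14a2 0.0444 FPKM. In treated SHR Akr1b1 led at 30.3 FPKM, above Slc6a6 at 16.7 FPKM, with no overlap of their libraries. In untreated SHR Slc6a6 and Akr1b1 averaged 23.4 and 23.3 FPKM and overlapped. In WKY Slc6a6 led at 33.0 FPKM, above Akr1b1 at 17.4 FPKM, again without overlap. Below these, Nfat5 was next in each group, and its libraries overlapped those of Akr1b1 in WKY only. Slc5a3 and Slc6a12 overlapped in untreated SHR and in WKY, and Slc14a1 and Slc6a12 overlapped in treated SHR and in untreated SHR.

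**Figure D1:**
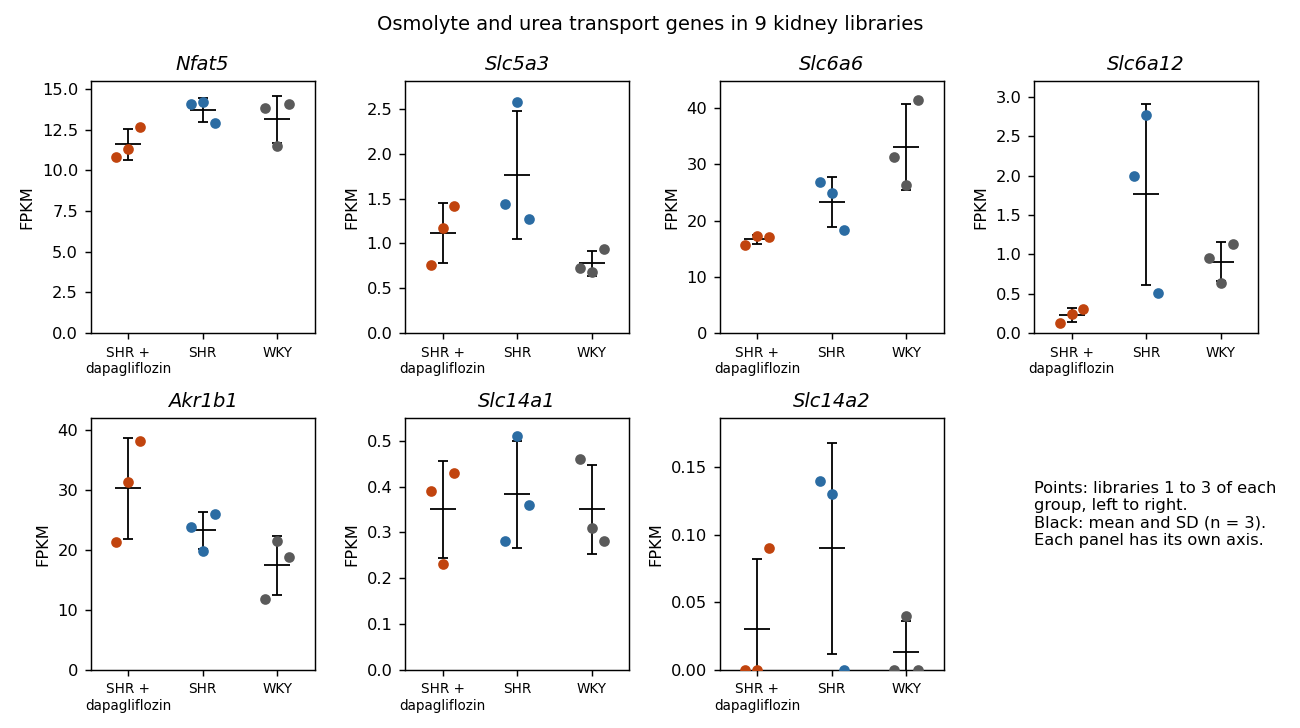
Levels in FPKM (vertical axes, each panel with its own scale from 0) of the 7 members in treated SHR, untreated SHR and WKY, with 1 point per library and the mean and SD of 3 in black. Treated libraries lay between 15.7 and 17.3 FPKM for Slc6a6 and between 0.13 and 0.31 FPKM for Slc6a12, below every untreated SHR and WKY library, while Slc14a2 did not exceed 0.14 FPKM anywhere.

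Of the 7 members, 5 passed the filter of at least 1 FPKM in at least 3 libraries and were tested, and Slc14a1 and Slc14a2 did not pass. Slc6a12 passed by the smallest possible margin, through WKY library 3 and untreated SHR libraries 1 and 2. Each comparison was fitted across all 13127 genes tested, and all 3 comparisons come from the same 9 libraries, so that each group enters 2 of them. In treated against untreated SHR, 0 of the 5 members and 0% of all genes were called by limma with Benjamini-Hochberg adjustment. In treated SHR against WKY, 1 of the 5 was called, Slc6a6, where 22.9% of all genes were called and 6.09% were called lower. Strain and drug differ together in that comparison, so no call there can be given to either alone. In untreated SHR against WKY, 0 of the 5 were called, where 2.96% of all genes were. Without adjustment, p was under 0.05 for 1997 genes (15.2%) in treated against untreated SHR, with Slc6a12, Slc6a6 and Nfat5 among them.

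**Figure D2:**
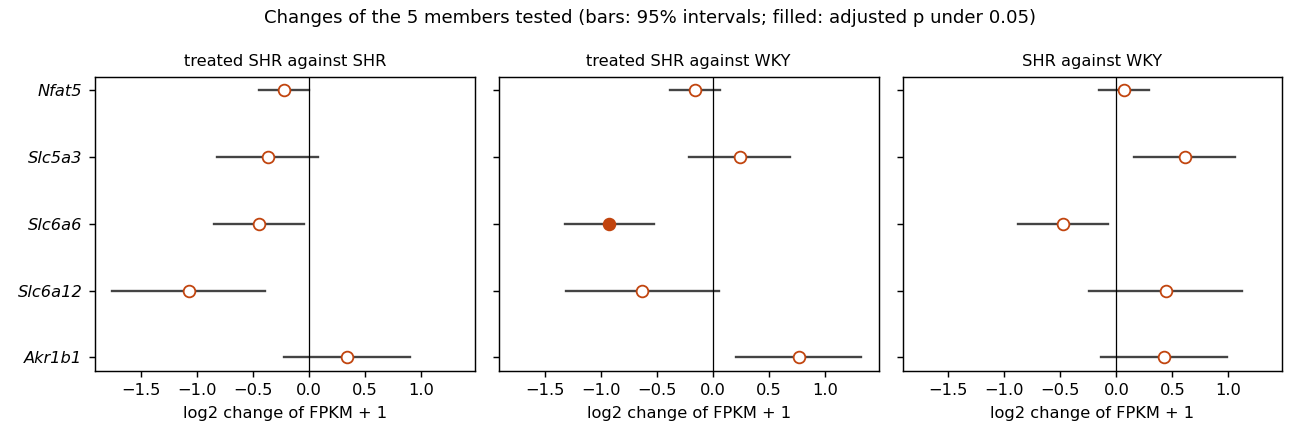
Log2 changes of FPKM + 1 (horizontal axis) of the 5 members tested in the 3 comparisons, with 95% intervals from limma, filled where the adjusted p was under 0.05. The filled point is Slc6a6 in treated SHR against WKY at -0.92, and the interval of Slc6a12 in treated against untreated SHR runs from -1.76 to -0.39.

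The taurine carrier gene Slc6a6 (gene ID 29464), which encodes TauT, was the member called lower in treated SHR against WKY. Its level was 15.7, 17.3 and 17.0 FPKM in treated SHR, 26.9, 24.85 and 18.3 FPKM in untreated SHR, and 31.3, 26.4 and 41.4 FPKM in WKY. The treated libraries lay close together and below all 6 others, and untreated SHR library 2 and library 3 lay below all WKY libraries while untreated SHR library 1 fell within them. Against WKY the log2 change of treated SHR was -0.92 (SE 0.18, adjusted p = 0.0126 in limma), at 16.7 ± 0.847 FPKM against 33.0 ± 7.66 FPKM (SD, n = 3 each). The call held in each of the 9 fits that left out 1 library, with log2 changes from -1.07 to -0.75 and adjusted p up to 0.0461. Against untreated SHR the change was -0.45 (SE 0.18, adjusted p = 0.302 in limma) and did not pass, although the libraries did not overlap. In untreated SHR against WKY it was -0.48 (SE 0.18, adjusted p = 0.194 in limma) and did not pass either.

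Segment markers differed between the groups together with Slc6a6. In bulk tissue fewer cells of a type and less RNA per cell cannot be told apart. Of 9 principal cell markers of the collecting duct, all 9 were called higher in treated SHR against WKY, with summed levels of 2069 to 3833 FPKM in treated SHR, 1379 to 1722 FPKM in untreated SHR and 684 to 1284 FPKM in WKY. Of 8 proximal tubule markers, 2 were called lower and all 8 had lower means, with sums of 1430 to 2664 FPKM in treated SHR, 3101 to 3470 FPKM in untreated SHR and 3481 to 4290 FPKM in WKY. A region score, the mean log2 level of the first list minus that of the second, was 0.71 to 1.96 in treated SHR, -0.91 to 0.25 in untreated SHR and -1.76 to -1.39 in WKY, with no overlap of the 3 groups. With this score as a covariate the change of Slc6a6 against WKY was -0.25 (adjusted p = 0.9998 in limma), and 5 of all genes were called in that fit. Group and this score therefore cannot be told apart for this gene or the others below. The score uses 2 of the 11 cell type lists, and its name is a label. In treated SHR against WKY all 3 tested distal convoluted tubule markers and all 4 intercalated cell markers were also called higher. All 5 podocyte markers had higher means, with 1 called. Of 7 thick ascending limb markers, 1 was called higher and 1 lower. Whether the tissue region sampled differed was not tested.

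The betaine carrier gene Slc6a12 (gene ID 50676), which encodes BGT1, was the lowest of the tested members in treated SHR. It measured 0.13, 0.24 and 0.31 FPKM in treated SHR, 2.0, 2.77 and 0.51 FPKM in untreated SHR, and 0.95, 0.64 and 1.13 FPKM in WKY. All 3 treated libraries lay below the 6 others, and untreated SHR split into 2 libraries above all WKY and library 3 below them. The log2 change of treated against untreated SHR was -1.07 (SE 0.30, adjusted p = 0.281 in limma) and did not pass, and with a pseudocount of 0.1 in place of 1 it was -2.28. Against WKY the change in treated SHR was -0.63 (SE 0.30, adjusted p = 0.151 in limma). It passed, at an unchanged -0.63 and an adjusted p of 0.0354 in limma, when untreated SHR library 3 was left out of the common fit. Untreated SHR against WKY gave 0.44 (SE 0.30, adjusted p = 0.438 in limma). Slc6a12 lies beside Slc6a13, a related carrier gene, in the RefSeq table.

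The myo-inositol carrier gene Slc5a3 (gene ID 114507), which encodes SMIT1, had its highest levels in untreated SHR. It measured 0.76, 1.17 and 1.42 FPKM in treated SHR, 1.44, 2.58 and 1.27 FPKM in untreated SHR, and 0.72, 0.68 and 0.94 FPKM in WKY. Every untreated SHR library lay above every WKY library, and treated SHR overlapped both groups. The change in untreated SHR against WKY was 0.61 (SE 0.20, adjusted p = 0.156 in limma) and did not pass. It was -0.37 (SE 0.20, adjusted p = 0.386) in treated against untreated SHR and 0.24 (SE 0.20, adjusted p = 0.389) in treated SHR against WKY, by the same fit. With the region score the first of these was 0.62 and did not pass. Slc5a3 overlaps Mrps6, a gene for a mitochondrial ribosomal protein, which measured 50.4 ± 9.28 FPKM in treated SHR, 47.3 ± 7.30 FPKM in untreated SHR and 38.0 ± 3.27 FPKM in WKY (SD, n = 3 each). Reads in the shared stretch could be given to either gene, so the level of Slc5a3 is uncertain.

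Akr1b1 (gene ID 24192) encodes aldose reductase, which makes sorbitol from glucose, and had its highest mean in treated SHR. It measured 21.4, 31.4 and 38.2 FPKM in treated SHR, 23.9, 19.9 and 26.0 FPKM in untreated SHR, and 11.9, 21.6 and 18.9 FPKM in WKY. The groups overlapped in each comparison, treated library 1 lying within the range of WKY and treated libraries 2 and 3 above all others. The change in treated SHR against WKY was 0.77 (SE 0.25, adjusted p = 0.0540 in limma) and did not pass. It passed at 0.99 (adjusted p = 0.0130 in limma) without treated library 1 and at 0.93 (adjusted p = 0.0382 in limma) without WKY library 2. It also passed, at an unchanged 0.77, with the replicate numbers of the titles as a block in the fit. The changes in treated against untreated SHR (0.34, SE 0.25, adjusted p = 0.517 in limma) and in untreated SHR against WKY (0.43, SE 0.25, adjusted p = 0.366 in limma) did not pass. Its Pearson r with the mean of the 9 collecting duct markers was 0.912 over the 9 libraries and 0.910 after the group means were subtracted, a description of libraries that share their groups. With the region score as a covariate its change in treated SHR was -0.26 against untreated SHR and -0.25 against WKY. Akr1b8, a related reductase gene next to Akr1b1 that could share reads with it, stood at 114 ± 31.8 FPKM in treated SHR, 118 ± 24.1 FPKM in untreated SHR and 92.4 ± 2.18 FPKM in WKY.

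The 2 best expressed osmolyte genes thus stood in different proportions in treated SHR and WKY. The ratio of Slc6a6 to Akr1b1 within a library, which a single scaling factor per library does not alter, was 0.734, 0.551 and 0.445 in treated SHR, 1.12, 1.25 and 0.706 in untreated SHR, and 2.63, 1.22 and 2.2 in WKY. The treated libraries lay below all WKY libraries and overlapped untreated SHR only through its library 3. Untreated SHR overlapped WKY through WKY library 2, and the ratio was not tested. A ratio shows unequal change and not which gene changed.

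Nfat5 (gene ID 307820), the transcription factor above these targets, stayed between 10.8 and 14.2 FPKM in all 9 libraries. It measured 10.8, 11.3 and 12.7 FPKM in treated SHR, 14.1, 14.2 and 12.9 FPKM in untreated SHR, and 13.8, 11.5 and 14.1 FPKM in WKY. Treated libraries lay just below all untreated SHR libraries and overlapped WKY. The log2 change of treated against untreated SHR was -0.23 (SE 0.10, 95% interval -0.45 to -0.00179, adjusted p = 0.325 in limma) and did not pass. Against WKY it was -0.16 in treated SHR (adjusted p = 0.246) and 0.06 in untreated SHR (adjusted p = 0.738) by the same fit, and this last value turned to -0.02 under either other scaling. NFAT5 is also regulated by its entry into the nucleus, which RNA does not measure.

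Read against all genes, the count of members whose groups did not overlap was highest in treated against untreated SHR. There 3 of the 5 tested members were lower without overlap, Nfat5, Slc6a6 and Slc6a12, where this held for 6.44% of all genes. Slc6a12 was tested only through libraries of untreated SHR and WKY, where it is high, so its place in this count and the next follows in part from the filter. In treated SHR against WKY 2 of the 5, Slc6a6 and Slc6a12, were lower without overlap, against 10.4% of all genes. In untreated SHR against WKY 1 of the 5, Slc5a3, was higher without overlap, against 20.3% of all genes. Slc5a3 was tested only through SHR libraries, as it did not exceed 0.94 FPKM in WKY, so its place here also follows in part from the filter. Each share of all genes given here counts only the direction named, and is smaller than the share without overlap in either direction. The members' median log2 changes in these comparisons were -0.37, -0.16 and 0.43, beside 0.04, 0.11 and 0.07 over all genes tested.

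Both urea transporter genes were below 1 FPKM in every library, with means over the 9 libraries above those of 25.7% of all genes for Slc14a1 and 12.2% for Slc14a2. Slc14a1 (gene ID 54301), which encodes UT-B, measured 0.39, 0.23 and 0.43 FPKM in treated SHR, 0.28, 0.51 and 0.36 FPKM in untreated SHR, and 0.46, 0.31 and 0.28 FPKM in WKY, with all 3 groups overlapping. Slc14a2 (gene ID 54302), which encodes the UT-A carriers, was listed at 0, 0 and 0.09 FPKM in treated SHR, at 0.14, 0.13 and 0 FPKM in untreated SHR, and at 0, 0.04 and 0 FPKM in WKY. Fitted without the filter, on 19028 genes, neither differed in any comparison at an adjusted p below 0.412 in limma. The 2 genes are neighbours in the RefSeq table. Other cells of the tissue were measured well: the 8 endothelial markers summed to 143 to 230 FPKM in treated SHR, 157 to 240 FPKM in untreated SHR and 78.2 to 201 FPKM in WKY. Beta globin (Hbb), a red cell transcript, stood at 530 to 1358 FPKM over all libraries. Of 4 markers of thin limbs and inner medulla, all were above 0 in each library and 2 were called higher in treated SHR against WKY, with sums of 151 to 278 FPKM in treated SHR, 204 to 393 FPKM in untreated SHR and 229 to 383 FPKM in WKY. Aqp2, the water channel of the whole collecting duct, stood at no less than 191 FPKM in any library. The 6 urothelial markers, which line the papilla and pelvis, did not exceed 0.70 FPKM in any library, and Krt5, Upk2 and Upk3a were listed at 0 in at least 7 of 9.

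Genes of osmolyte metabolism, mostly enzymes but also the carriers Slc5a11 and Slc2a13, were read from a list of 15 genes, all of which were tested. In treated SHR against WKY 2 were called higher, 3 were called lower and 10 did not pass. The median log2 change was -0.31, beside 0.11 over all genes and 22.9% of all genes called. The 2 called higher encode enzymes of myo-inositol synthesis, while Impa1, the other inositol monophosphatase gene of the list, did not pass (log2 change -0.20, adjusted p = 0.0698 in limma). Impa1 averaged 23.4 ± 0.316 FPKM in treated SHR, 26.2 ± 0.629 FPKM in untreated SHR and 27.15 ± 2.12 FPKM in WKY (SD, n = 3 each), with treated SHR below both other groups without overlap. Isyna1, the inositol-3-phosphate synthase that commits glucose 6-phosphate to inositol, measured 43.2, 57.4 and 65.2 FPKM in treated SHR, 39.4, 33.9 and 40.8 FPKM in untreated SHR, and 22.9, 33.5 and 22.3 FPKM in WKY. The 3 groups did not overlap, and its change in treated SHR against WKY was 1.05 (SE 0.19, adjusted p = 0.0102 in limma). Impa2, an inositol monophosphatase that takes the last step, measured 63.5, 83.0 and 92.5 FPKM in treated SHR, 56.3, 51.9 and 58.1 FPKM in untreated SHR, and 44.4, 49.3 and 42.2 FPKM in WKY. Its groups did not overlap either, and the change was 0.79 (SE 0.13, adjusted p = 0.00870 in limma). Both calls held in all 9 fits without 1 library, and with the region score the changes were 0.32 and 0.27 and did not pass. In treated against untreated SHR the 2 genes had the smallest p of the list and did not pass (0.51 and 0.50, adjusted p = 0.292 and 0.281 in limma), and Impa2 passed without treated library 1, at 0.65.

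The genes called lower in treated SHR against WKY belong to taurine, inositol and betaine handling. Csad, the decarboxylase of taurine synthesis, measured 114, 40.8 and 47.1 FPKM in treated SHR, 70.4, 96.5 and 85.0 FPKM in untreated SHR, and 158, 111 and 148 FPKM in WKY. Treated library 1 overlapped WKY, and the change was -1.17 (SE 0.34, adjusted p = 0.0399 in limma). Slc5a11, a second myo-inositol carrier known as SMIT2, measured 22.5, 12.9 and 9.67 FPKM in treated SHR, 25.3, 26.5 and 19.3 FPKM in untreated SHR, and 30.2, 23.8 and 29.5 FPKM in WKY, with a change against WKY of -0.92 (SE 0.26, adjusted p = 0.0371 in limma). The last was Bhmt, the liver and kidney enzyme that uses betaine, which lies outside the rule for named genes and is named after its values were seen, at 37.1 ± 19.3 FPKM in treated SHR against 68.8 ± 10.1 FPKM in WKY (SD, n = 3 each, log2 change -0.99, adjusted p = 0.0484 in limma). The call of Csad was lost in 7 of the 9 fits without 1 library, held only without treated library 1 or WKY library 2, with adjusted p up to 0.138. That of Slc5a11 was lost in 6, held only without treated library 1, WKY library 2 or untreated SHR library 3, with adjusted p up to 0.115. Cdo1, the step before Csad, measured 84.1 ± 51.7 FPKM against 138 ± 36.7 FPKM, and Miox, the tubular enzyme that breaks down myo-inositol, 2452 ± 905 FPKM against 3412 ± 383 FPKM. Neither passed. No gene of the list was called in treated against untreated SHR or in untreated SHR against WKY.

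**Figure D3:**
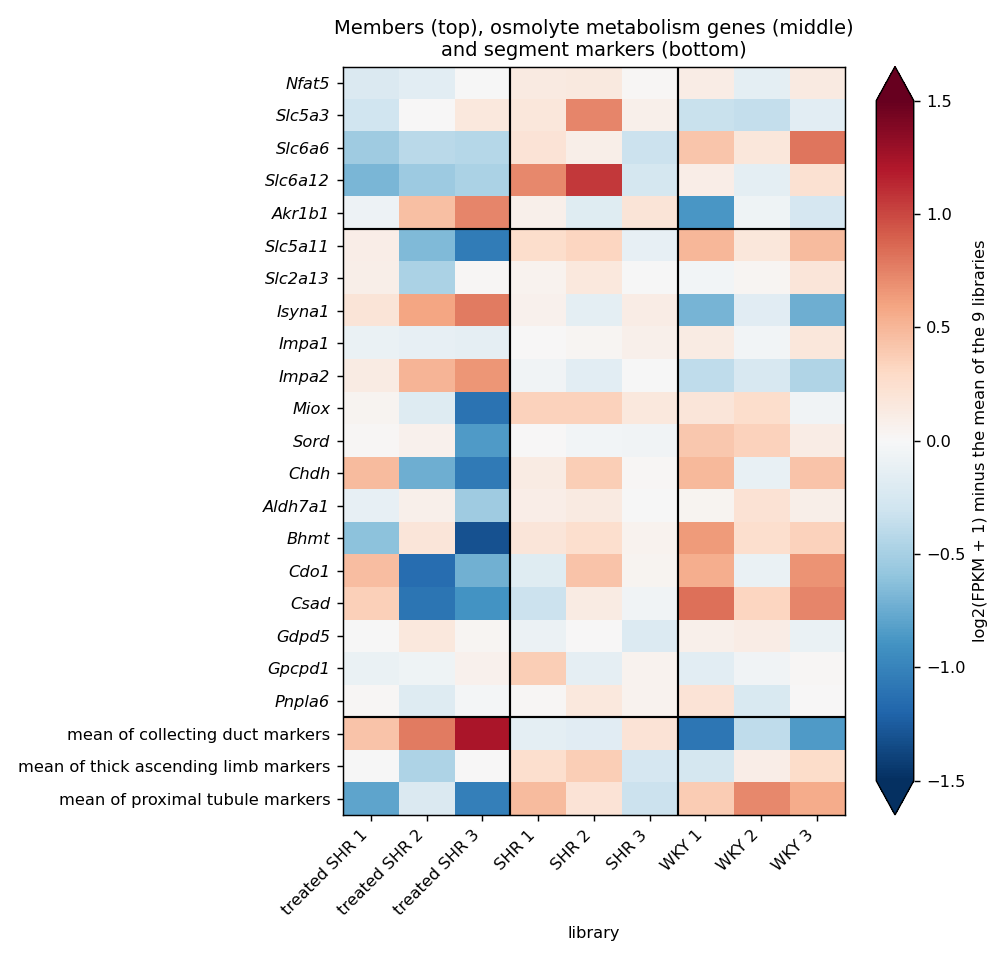
Log2(FPKM + 1) of the 5 tested members, the 15 osmolyte metabolism genes and the means of 3 segment marker lists in the 9 libraries (columns), each row centred on its mean over the 9 libraries, red above and blue below. By group mean Akr1b1, Isyna1 and Impa2 are highest in treated SHR and lowest in WKY, as are the collecting duct markers. Slc6a6 has the opposite order of means. Single libraries of Akr1b1 overlap in each comparison, and those of Slc6a6 between untreated SHR and WKY.

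The calls in the other pathway lists, all in treated SHR against WKY, stand beside a share of 22.9% of all genes called there. Of 7 tested genes known to respond to tonicity, 2 were called higher and 5 did not pass in treated SHR against WKY. Their median was 0.56, beside 0.11 over all genes. Hspb1, a small heat shock protein gene, measured 32.8, 39.1 and 51.5 FPKM in treated SHR, 38.7, 29.9 and 37.9 FPKM in untreated SHR, and 15.7, 23.0 and 19.5 FPKM in WKY. Both SHR groups lay above WKY, with a change in treated SHR of 1.04 (SE 0.19, adjusted p = 0.0108 in limma), and with one in untreated SHR of 0.85 (adjusted p = 0.0516 in limma) that did not pass. The value in untreated SHR was called in 3 of the 9 fits without 1 library, those without treated library 1, treated library 3 or WKY library 2. Hspa4l, an osmotic stress chaperone gene, measured 6.67, 7.09 and 7.13 FPKM in treated SHR, 5.55, 4.56 and 4.91 FPKM in untreated SHR, and 4.80, 5.07 and 4.24 FPKM in WKY. Its treated libraries lay above all 6 others, and the change against WKY was 0.48 (SE 0.10, adjusted p = 0.0143 in limma). That call was lost without treated library 2 or WKY library 3, with adjusted p up to 0.0614. Sgk1, a kinase of salt transport, measured 106 ± 60.8 FPKM in treated SHR, 87.4 ± 6.33 FPKM in untreated SHR and 39.8 ± 14.7 FPKM in WKY, and passed in no comparison. In untreated SHR against WKY it passed when treated library 1 was left out.

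Of 11 genes of NFAT5 signalling, 3 were called higher and 8 did not pass in treated SHR against WKY, a share near that of all genes. They were the tyrosine kinase gene Abl1 (6.14 ± 0.545 against 3.85 ± 0.297 FPKM, log2 change 0.56, adjusted p = 0.0108 in limma), the tyrosine kinase gene Fyn (11.9 ± 1.74 against 8.00 ± 1.01 FPKM, 0.52, adjusted p = 0.0433 in limma) and Prkaca, a catalytic subunit of protein kinase A (54.0 ± 4.35 against 42.4 ± 4.89 FPKM, 0.34, adjusted p = 0.0405 in limma). The call of Abl1 was lost without WKY library 3 (adjusted p = 0.0514), that of Fyn in 6 of the 9 fits without 1 library and that of Prkaca in 7. Of 5 subunits of the volume-regulated anion channel, which lets osmolytes out of swollen cells, 1 was called higher and 1 lower. Lrrc8a, the obligatory subunit, measured 15.6 ± 1.33 FPKM in treated SHR against 12.6 ± 0.917 FPKM in WKY (0.29, adjusted p = 0.0499 in limma). Lrrc8e measured 8.53 ± 2.39 FPKM in treated SHR, 9.30 ± 0.681 FPKM in untreated SHR and 15.1 ± 2.77 FPKM in WKY (-0.77 against WKY, adjusted p = 0.0210 in limma). The call of Lrrc8a held in 1 of the 9 fits without 1 library and that of Lrrc8e in 5. Of 8 genes of urea and arginine metabolism 4 were tested and 0 passed in any comparison. Ass1, the argininosuccinate synthase of renal arginine production, measured 443 ± 144 FPKM in treated SHR, 634 ± 91.6 FPKM in untreated SHR and 728 ± 116 FPKM in WKY, and its change in treated SHR against WKY (-0.76, adjusted p = 0.0530 in limma) passed only without treated library 1 or 2. Cps1, the liver enzyme that opens the urea cycle, was listed at 0 in 8 of 9 libraries.

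**Figure D4:**
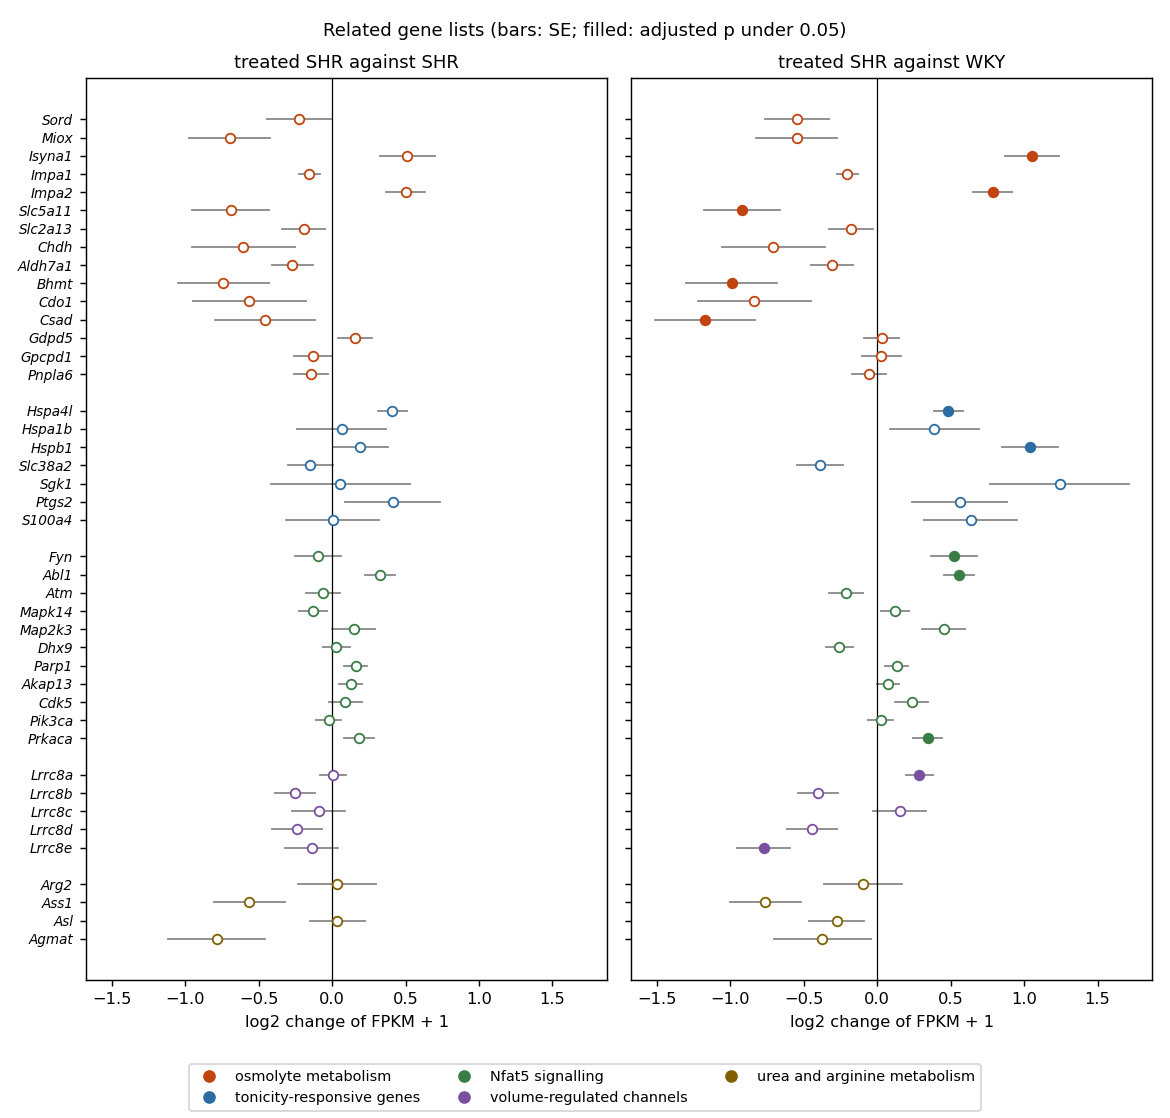
Log2 changes of FPKM + 1 (horizontal axes) with SE for every tested gene of the 5 pathway lists, in treated against untreated SHR and in treated SHR against WKY, filled where the adjusted p was under 0.05. Filled points are found in the WKY comparison alone, where Isyna1 stands at 1.05 and Csad at -1.17.

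The genes whose pattern over the 9 libraries was most like each member were taken from 9003 genes with a mean of at least 5 FPKM, by Pearson's r. Akr1b1 was followed most closely, by Ucp2 (r = 0.995), Slc44a2 (0.993) and Tspan7 (0.989), and after the group means were subtracted these values were 0.992, 0.987 and 0.980. Slc6a6 was most like Tcea1 (r = 0.961), Rps3a (0.959) and Arhgap27 (0.945), with 0.888, 0.859 and 0.865 after subtraction. Slc6a12 was most like Pdgfa (0.924), Bicdl1 (0.919) and Mark3 (0.917), Nfat5 like Scyl3 (0.915), Cnot7 (0.885) and Ovol1 (0.878), and Slc5a3 like Rabl2 (0.905), Rcc1l (0.904) and Traf4 (0.899). These are the highest of many values over libraries that share groups and are descriptions only. Among the members themselves, the 3 carriers and Nfat5 had r between -0.13 (Slc5a3 with Slc6a6) and 0.82 (Nfat5 with Slc6a12) over the 9 libraries, and between 0.50 and 0.77 with group means subtracted. Akr1b1 had r between -0.67 (with Slc6a6) and 0.32 (with Slc5a3) with each of them, and between -0.23 and 0.14 with group means subtracted.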

How the data were processed

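Kidney RNA of 9 rats was sequenced, per the labels' protocols, as single-end reads of 50 bases on a BGISEQ-500 instrument after Trizol extraction. Per the submitters' processing notes, HISAT2 2.0.4, Bowtie2 2.2.5 and the rat build Rnor_6.0 were used. The role of each tool, the annotation, any use of strand and the program that computed expression were not given in any source used here. The table deposited by the authors holds FPKM per the file headers, which scales fragments by transcript length and library size, rounded to 2 decimals. Read totals are unknown, so no counting interval or floor can be given, and an FPKM listed at 0 has no stated upper limit. FPKM is relative within a library, so a large change of abundant transcripts shifts all others.

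A gene was tested if 3 or more libraries reached 1 FPKM, which left 13127 of 19367. Values were analysed as log2(FPKM + 1) with limma 3.58.1 in R 4.3.3, in 1 fit of group means to the 9 libraries (6 residual degrees of freedom) with a trend of variance on intensity, two-sided tests and Benjamini-Hochberg adjustment over all genes tested. Calls were made where the adjusted p was under 0.05. Fold changes on this scale understate the change of weakly expressed genes. On simulated data with independent noise in each gene, the fit returned on average the changes given to genes with a mean log2 level above 2. Slc5a3 and Slc6a12 lie below that level. Variation shared between genes was not simulated, so the simulation does not cover it. Alternatives were another pseudocount, other filters, 2 other scalings, a replicate block, fits of 2 groups, no trend, a region score and leaving out each library.

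The 7 members, the 5 pathway lists and the 11 cell type lists were chosen with earlier results of these data known. All members are named in each comparison. Of the pathway lists at most 4 called genes were named by smallest p, and where none was called up to 2 were given as not passing. Marker lists were summarised by counts and summed levels. Promoter sequences and neighbouring genes came from RefSeq tables of the assembly GRCr8. All 7 members were matched by gene ID, and promoter windows were held for 5 of them. That assembly is not the authors' build and was not used for their values. Python 3.11.15 with numpy 2.4.6, pandas 2.3.3 and matplotlib 3.10.9 was used for levels and plots.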

Additional observations from a re-analysis of the deposited data

How the results depend on the processing

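The 5 tested members gave 264 values under the alternatives, of which 253 kept both their direction and their side of the threshold. The number of members called in treated SHR against WKY was 1, and 2 with the replicate block, 0 with the region score and 1 to 2 when 1 library was left out. In the other 2 comparisons it was 0 under each alternative run. Under the region score, directions turned for Akr1b1 in treated SHR (-0.26 against untreated SHR and -0.25 against WKY), for Slc6a12 in treated SHR against WKY (0.57), for Slc5a11 (0.47), Fyn (-0.28), Prkaca (-0.0283) and Ass1 (0.64) in that comparison, and for Lrrc8d (0.0590), Agmat (0.0224) and Ass1 (0.25) in treated against untreated SHR. That score does not overlap between the groups, so this fit takes out group differences by construction. Nfat5 in untreated SHR against WKY turned to -0.0157 under median-of-ratios scaling and -0.0173 under quantile normalization, and ran from -0.0232 to 0.112 when 1 library was left out, and the cause was not tested.

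Over all genes, 388 were called in untreated SHR against WKY (65 with the region score, 167 without WKY library 3 to 626 without treated library 1). In treated against untreated SHR 0 were called (1 with the replicate block, 0 to 830 without 1 library, the 830 without treated library 1). In treated SHR against WKY 3010 were called (1026 from the libraries of these groups alone, 5 with the region score, 593 without WKY library 3 to 4791 without treated library 1). In that comparison the median log2 change of all genes went from 0.11 to -0.012 under median-of-ratios scaling and to 0.010 under quantile normalization. Slc6a6 stood at -1.05 and -1.01 under these 2 scalings.

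The replicate numbers of the titles were not taken as pairs, as the labels give no pairing. Correlations of deviations from the group means ran from -0.33 to 0.46 between same-numbered libraries. Between differently numbered libraries they ran from -0.53 to 0.33. The same-numbered values of WKY with treated SHR were 0.46, 0.39 and 0.00029. Deviations within groups of 3 cannot decide whether libraries were paired. With the replicate block Akr1b1 was called in treated SHR against WKY (adjusted p = 0.0380 in limma) at the same log2 change of 0.77. Under the stricter filter Slc5a3 and Slc6a12 were not tested. The depth of the libraries is unknown, which limits what can be said of Slc14a1, Slc14a2 and Slc6a12.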
